A study of Mus musculus with 3 samples.

Results

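Copying the genome in S phase needs a set of enzymes and loading factors, and this account follows 47 mouse genes that encode them, in embryonic stem cells with and without introduced Lef1. The members were chosen by name and not by a cut on their values, but with earlier results of these data known. They are 15 genes of origin licensing, 8 of origin firing, 20 of the replication fork and 4 of nucleotide supply. All 47 were found by Entrez gene number among the 17997 genes listed in any library, and all 47 were at 3 FPKM or more in every library. FPKM is a fragment count scaled to transcript length and to library size.

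Total RNA came from 46C mouse embryonic stem cells, a line of strain 129, grown in serum with LIF, the cytokine that holds such cells undifferentiated, on gelatin. The empty vector culture (PB) was collected at passage 2 after transfection, and Lef1-transfected cultures (PB-Lef1) at passage 2 and at passage 5. Lef1 is a DNA-binding transcription factor that acts together with beta-catenin when Wnt signals. The cultures are named PB control (the empty vector), Lef1 P2 and Lef1 P5 here, with n = 1 library for each. The labels do not say which promoter drives Lef1 or whether the cultures were clonal, and a passage 5 control was not analysed here, so introduced gene and passage cannot be told apart for Lef1 P5.

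With n = 1 there is no replicate check and no test between conditions. Intervals in parentheses are exact 95% Poisson intervals of the counts put on the FPKM scale. They cover counting error only, since amplified reads are not independent molecules and the difference between cultures is not in them. A gene was called higher or lower at 1.5-fold or at 2-fold on the log2(FPKM + 1) scale, where the higher of both libraries had at least 3 FPKM and 20 expected reads. Folds are given as plain ratios of FPKM.

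The libraries held 9170554 to 9380813 expected counts. Lef1 was at 1.49, 135 and 214 FPKM in the libraries from PB control to Lef1 P5, matching their labels. The 8 embryonic stem cell markers were at 1 FPKM or more in each library, with summed levels of 5947, 5445 and 5906 FPKM. Dppa5a alone made up 3771, 3818 and 3816 FPKM of these sums. It was not lower in Lef1 P2, so the lower sum there came from the other stem cell markers. The summed level of those others was lowest in Lef1 P2, and the sums do not show which of them were lower. The 12 endoderm markers summed to 180.0, 1871 and 493 FPKM. The 8 fibroblast or feeder markers summed to 8.20 to 18.5 FPKM, and Postn and Lum have no row in any library. In Lef1 P2 the median of all 12894 genes at 1 FPKM or more lay 0.11 above the PB control on the log2 scale, against -0.02 in Lef1 P5, so values of the members are also given relative to these medians.

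Replication is prepared in G1, when the origin recognition complex (Orc1 to Orc6), Cdc6 and Cdt1 load the ring-shaped Mcm2 to Mcm7 helicase onto DNA in an inactive form. In S phase the kinase Cdc7 with its activator Dbf4, together with Cdc45, the GINS complex and Mcm10, turns the rings into moving helicases. DNA polymerases, the sliding clamp Pcna and single-strand binding proteins then work at the fork, fed by enzymes that make deoxynucleotides. Mouse embryonic stem cells cycle fast and spend much of their time in S phase, and many of these genes are known targets of E2F transcription factors.

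The known E2F sites are short and GC-rich, and promoter stretches of 3 members are shown because these genes are among those with the lower levels described next. The words TTTGGCGC, TTTCCCGC, TTTGCCGC, TTTGGCGG and TTTCCCGG were searched on both strands, from 250 bases before to 50 bases after each RefSeq start (GRCm38.p6). A palindromic site can match on both strands. Promoters were found for 39 members, and 16 of them (41.0%) held at least 1 word, against 7.95% of 8595 genes tested in Lef1 P2 against the PB control and 4.25% of all 27025 genes with a promoter. The 3 stretches below are 100 bases each, 5′ to 3′ on the strand of the gene, end before the start site and overlap no annotated exon. Capitals mark the matched word. They lie at chr8:75109314-75109413 (plus strand, Mcm5), chr1:128359762-128359861 (minus strand, Mcm6) and chrX:93632240-93632339 (minus strand, Pola1).
Mcm5: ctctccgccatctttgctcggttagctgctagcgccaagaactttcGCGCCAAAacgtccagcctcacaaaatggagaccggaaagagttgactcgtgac
Mcm6: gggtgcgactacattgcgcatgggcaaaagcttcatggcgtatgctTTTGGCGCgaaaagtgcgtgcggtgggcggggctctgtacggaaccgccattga
Pola1: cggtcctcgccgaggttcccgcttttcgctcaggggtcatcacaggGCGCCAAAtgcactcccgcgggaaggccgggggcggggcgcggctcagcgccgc
All 3 hold the same word, TTTGGCGC, read on the opposite strand in Mcm5 and Pola1. In Mcm6 the word spans bases 110 to 103 before the start, in Mcm5 bases 149 to 142 and in Pola1 bases 138 to 131. Cdc6, Mcm7 and Rpa1 also held a word upstream, but those stretches overlap an exon and are not printed. Orc3 and Gins3 held a word upstream too, and their stretches are not printed. Their log2 ratios of Lef1 P2 over the PB control were 0.08 and -0.02, and neither was called. The median log2 ratio of Lef1 P2 over the PB control was -0.40 for the 16 members with a word and -0.34 for the 23 with a promoter and none; both medians lay below that of all genes. A match is a description of the letters and not evidence of binding.

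In Lef1 P2 the replication genes were mostly lower than in the PB control, and in Lef1 P5 they were near the empty vector level. The summed level of the 47 members was 3249 FPKM in the PB control, 2462 FPKM in Lef1 P2 and 3404 FPKM in Lef1 P5. In Lef1 P2, 15 members were called lower at 1.5-fold and 0 higher, while 8.03% of all 10651 genes tested were called lower and 17.5% higher. Over all genes the split depends on scaling, with 1864 higher and 855 lower as deposited and 1252 higher and 1440 lower with median-of-ratios scaling, under which 17 members were called lower and 0 higher. At 2-fold 1 member, Pola1, was called lower, against 1.82% of all genes, and 0 were called higher, against 6.49%. The members' median log2 ratio was -0.34, which is 0.46 below the median of all genes. In all, 40 members were lower at any size (42.4% of all genes were), and for 30 lower members the counting intervals did not overlap (22.5% of all genes).

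**Figure D1:**
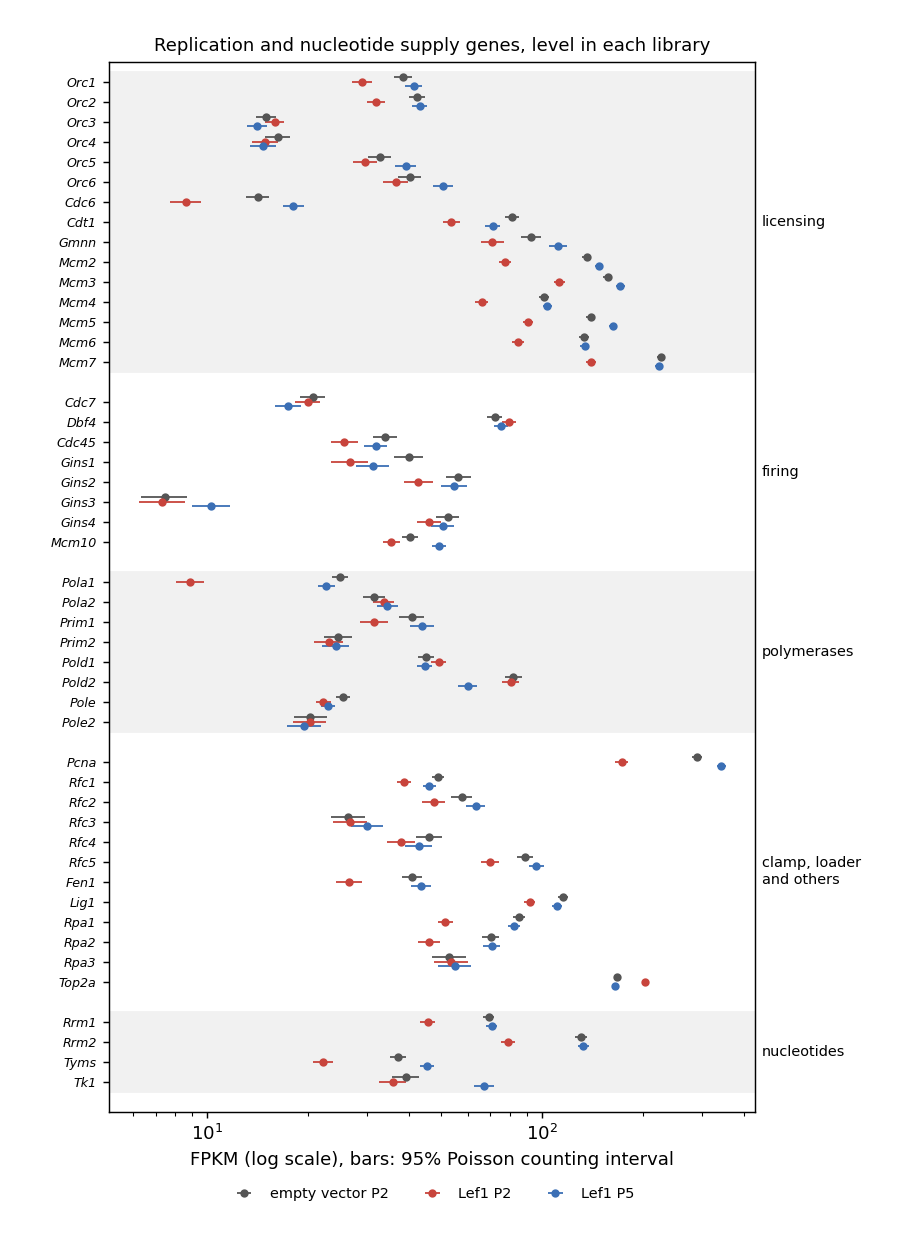
Level of each of the 47 members (rows, grouped by role) in FPKM on a log axis, with the empty vector (PB control) in grey, Lef1 P2 in red and Lef1 P5 in blue, 1 library each; bars are 95% Poisson counting intervals. The red points of Mcm2 to Mcm7, Pcna, Pola1, Rrm1, Rrm2 and Tyms lie to the left of the other colours, whereas those of Top2a and Dbf4 lie to the right.

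Lef1 P5 against the PB control gave 1 member called higher at 1.5-fold, Tk1, and 0 called lower, beside 4.31% and 5.95% of all 10121 genes tested. At 2-fold 0 members were called in either direction (1.40% of all genes higher and 1.28% lower). The members' median log2 ratio was 0.03, which is 0.05 above that of all genes. Of the members 20 were lower at any size (52.6% of all genes), and intervals were separate for 12 higher and 4 lower members (16.3% and 20.5% of all genes). Of the 47 members, 36 had their lowest level of the 3 libraries in Lef1 P2 and 4 their highest.

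Between the Lef1 libraries, 17 members were called higher in Lef1 P5 at 1.5-fold and 0 lower, beside 7.98% and 20% of all 10593 genes tested. The split over all genes was 845 higher and 2116 lower as deposited, and 1602 higher and 1279 lower with median-of-ratios scaling. At 2-fold Pola1 and Tyms were called higher (1.88% of all genes) and 0 members lower (6.86%). The median log2 ratio was 0.42, which is 0.59 above that of all genes, and 8 members were lower at any size (61.0% of all genes). This comparison shares the Lef1 P2 library with the first, and the others share the PB control, so the low level in 1 library enters both the first and the third.

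**Figure D2:**
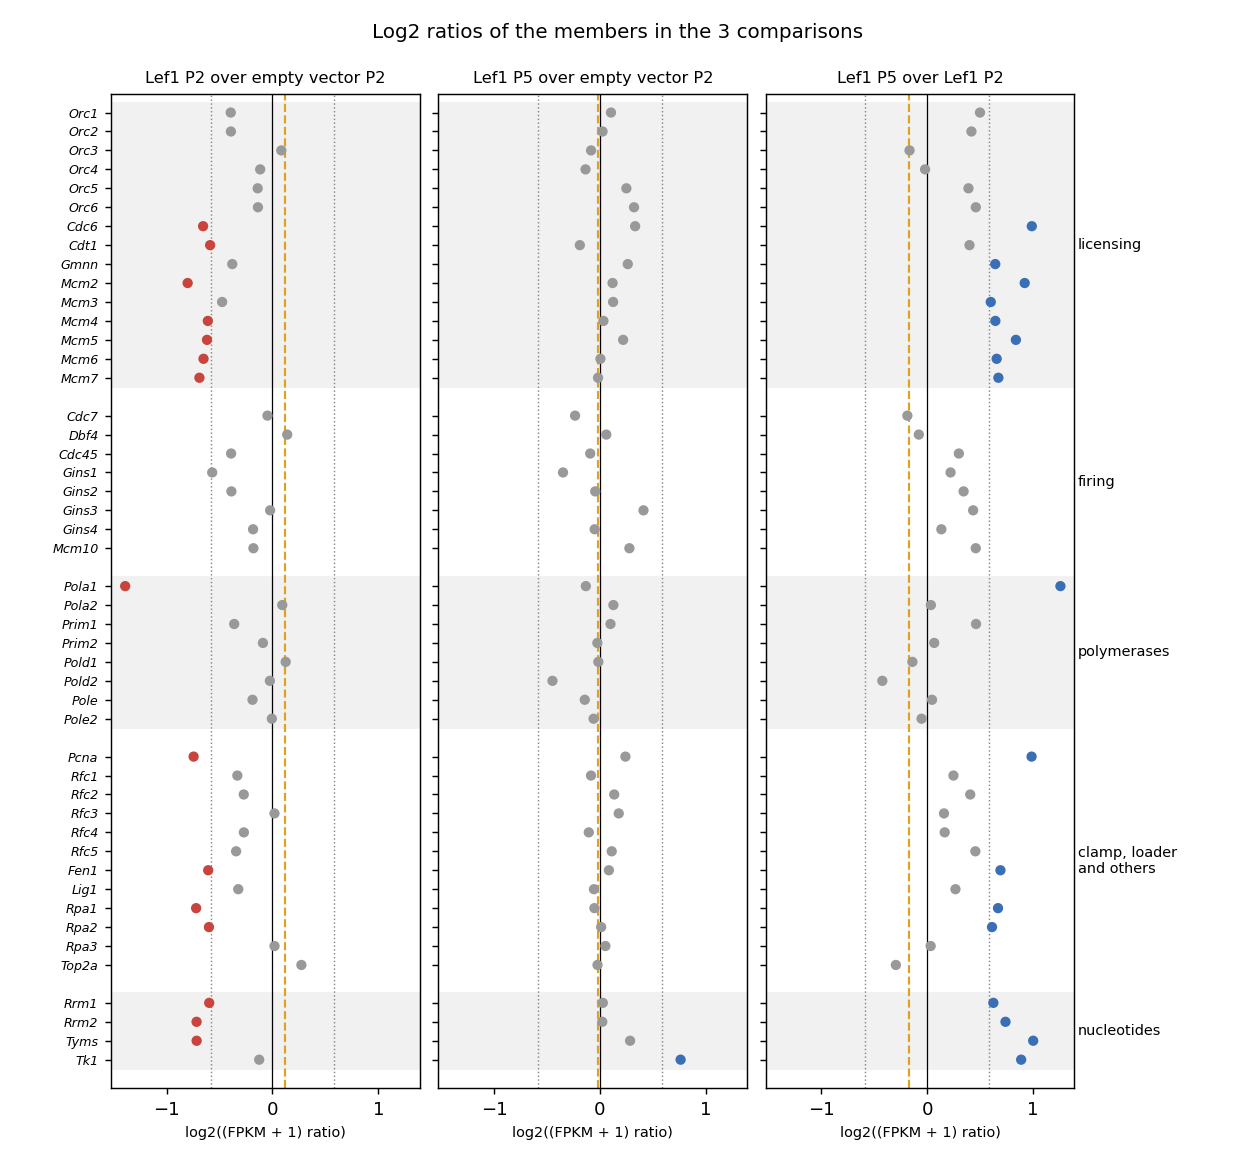
Log2 ratio of FPKM + 1 for each member (rows, grouped by role) in the 3 comparisons (panels); red points were called lower and blue points higher at 1.5-fold, grey points were not called. The solid line is 0, the dotted lines are 1.5-fold and the dashed line is the median of all genes (0.11, -0.02 and -0.17). The 15 red points of the left panel include 5 of the 6 Mcm helicase genes, and the middle panel holds a single coloured point, Tk1.

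**Figure D3:**
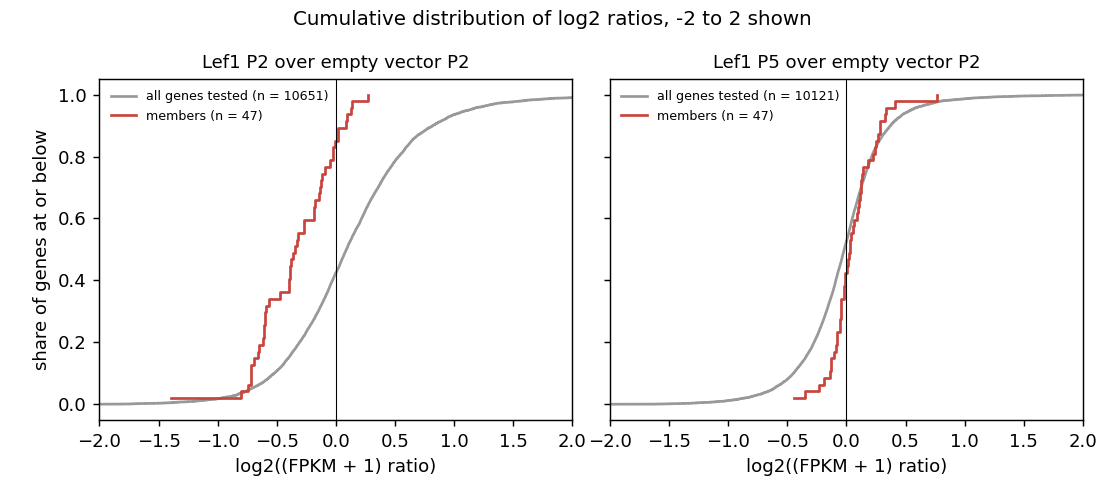
Share of genes (vertical axis) at or below each log2 ratio of FPKM + 1 (horizontal axis, -2 to 2) for the 47 members in red and all genes tested in grey. In Lef1 P2 over the PB control the members' curve lies to the left, with 40 of 47 below 0, and in Lef1 P5 over the PB control their median is 0.03.

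Of the 15 genes of origin licensing, 7 were called lower at 1.5-fold in Lef1 P2 and 0 higher, beside 8.03% and 17.5% of all genes tested, with a median log2 ratio of -0.48. The summed level of the Mcm2 to Mcm7 helicase genes was 894 FPKM in the PB control, 571 FPKM in Lef1 P2 and 944 FPKM in Lef1 P5.

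Mcm2, a helicase subunit, was at 136 FPKM (132 to 140) in the PB control, 77.5 FPKM (74.4 to 80.7) in Lef1 P2, then 148 FPKM (144 to 152) in Lef1 P5. The level in Lef1 P2 was 1.75-fold lower than in the PB control (counting interval of the fold 1.67 to 1.84), and the intervals of these libraries do not overlap. Mcm5 was at 139.8, 90.7 and 163 FPKM in the same order, 1.54-fold lower in Lef1 P2 and 1.17-fold above the PB control in Lef1 P5. Mcm7, the most abundant of the 6 per length, was at 226, 139.98 and 224 FPKM, so that Lef1 P5 and the PB control had overlapping intervals. Mcm6 was at 133.5, 84.6 and 134 FPKM.

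The remaining helicase genes were also lowest in Lef1 P2. Mcm4 was at 101 FPKM in the PB control, 65.95 FPKM in Lef1 P2 and 104 FPKM in Lef1 P5. Mcm3 was at 157, 113 and 171 FPKM, and its log2 ratio of -0.48 in Lef1 P2 missed the 1.5-fold call. All 6 helicase genes were called higher at 1.5-fold in Lef1 P5 than in Lef1 P2, beside 7.98% of all genes tested. Within the complex the ratios of Lef1 P2 over the PB control differed, from 0.571 for Mcm2 (0.542 to 0.600) to 0.717 for Mcm3 (0.684 to 0.752), with separate counting intervals. The ratio of Mcm2 to Mcm3 levels was accordingly 0.865 in the PB control, 0.688 in Lef1 P2, then 0.862 in Lef1 P5.

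The helicase loaders were also low in Lef1 P2. Cdc6, an ATPase that works with the origin recognition complex, was at 14.1 FPKM (13.0 to 15.3) in the PB control, 8.60 FPKM (7.73 to 9.55) in Lef1 P2, then 18.1 FPKM (16.8 to 19.4) in Lef1 P5. The 3 intervals do not overlap. Cdt1, which brings the helicase to the origin, was at 81.1, 53.6 and 71.1 FPKM, called lower in Lef1 P2 and 1.14-fold below the PB control in Lef1 P5. Gmnn encodes geminin, the inhibitor that binds Cdt1 and blocks licensing again after S phase has begun. It was at 92.7, 71.0 and 112 FPKM, and its log2 ratio of -0.38 in Lef1 P2 missed the call. The ratio of Cdt1 to Gmnn levels was 0.875, 0.755 and 0.637 in the same order.

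Genes of the origin recognition complex differed less. With the values as deposited none of the 6 was called at 1.5-fold in any comparison, beside 4.31% to 20% of all genes by comparison and direction. With median-of-ratios scaling Orc1, Orc2, Orc5 and Orc6 were called higher in Lef1 P5 than in Lef1 P2, and with TMM scaling Orc1, Orc2 and Orc6. Their median log2 ratio in Lef1 P2 was -0.14, beside 0.11 for all genes. Orc1, the subunit whose level varies with the cell cycle, was at 38.4, 28.9 and 41.3 FPKM, and Orc2 at 42.3, 32.0 and 43.1 FPKM. For both, the Lef1 P2 interval lay below the other libraries. Orc3 was at 14.95, 15.9 and 14.1 FPKM and Orc4 at 16.2, 14.9 and 14.7 FPKM, with overlapping intervals throughout. Orc5 (32.7, 29.6 and 39.1 FPKM) and Orc6 (40.2, 36.5 and 50.6 FPKM) were highest in Lef1 P5, with intervals separate from the PB control.

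With the values as deposited none of the 8 genes of origin firing was called at 1.5-fold in any comparison. By comparison and direction, 4.31% to 20% of all genes tested were called. Gins1 was called lower in Lef1 P2 under 5 other settings (a pseudocount of 0.1 FPKM, CPM, median-of-ratios, TMM and quantile scaling). Gins3 was called higher in Lef1 P5 than in Lef1 P2 with each of these 3 scalings, and Mcm10 with median-of-ratios and TMM. Their median log2 ratio was -0.18 in Lef1 P2, against -0.05 for Lef1 P5. The kinase gene Cdc7 was at 20.7, 19.95 and 17.4 FPKM in the PB control, Lef1 P2 and Lef1 P5. Its activator Dbf4 was at 72.1, 79.5 and 75.3 FPKM. It was 1 of 2 members higher in Lef1 P2 than in the PB control with separate intervals, against 34.5% of all genes tested. Its log2 ratio ran from -0.02 to 0.27 over the settings tried, so its direction depends on the setting.

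Cdc45 and GINS join the Mcm ring to form the active helicase. Cdc45 was at 33.9, 25.7 and 31.8 FPKM, and lowest in Lef1 P2. Gins1 was at 39.97 FPKM (36.1 to 44.2), 26.6 FPKM (23.4 to 30.1) and 31.2 FPKM (27.8 to 34.9), and its log2 ratio of -0.57 in Lef1 P2 lay just under the 1.5-fold call. Its Lef1 P5 level stayed 1.28-fold below the PB control, with separate intervals. Gins2 was at 56.2, 42.7 and 54.5 FPKM and Gins4 at 52.3, 45.9 and 50.5 FPKM. Gins3, the least abundant member per length, was at 7.45 FPKM (6.35 to 8.69), 7.32 FPKM (6.22 to 8.55) and 10.3 FPKM (8.96 to 11.7), higher in Lef1 P5 alone. Mcm10, a scaffold for helicase activation, was at 40.3, 35.4 and 49.1 FPKM.

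The subunits of polymerase alpha-primase, the complex that lays down the short primers for each new strand, did not share a pattern. Pola1, its catalytic polymerase subunit, was at 24.9 FPKM (23.6 to 26.4) in the PB control, 8.89 FPKM (8.07 to 9.77) in Lef1 P2, then 22.7 FPKM (21.4 to 24.0) in Lef1 P5. The level in Lef1 P2 was 2.81-fold lower than in the PB control (2.51 to 3.14), which placed Pola1 60th from the lowest among 10651 genes tested. Its expected reads were 1220, 432 and 1129, and all were whole numbers. Over the pseudocounts and scalings tried, the log2 ratio ran from -1.55 to -1.11.

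Pola2, the accessory subunit, was at 31.5, 33.6 and 34.5 FPKM with overlapping intervals. Its counts were not all whole, which makes its level less sure than the interval shows. The ratio of Pola1 to Pola2 was 0.792 in the PB control, 0.264 in Lef1 P2, then 0.657 in Lef1 P5. The primase subunit Prim1 was at 40.8, 31.5 and 43.8 FPKM, low in Lef1 P2 with separate intervals, and Prim2 at 24.6, 23.0 and 24.2 FPKM with overlapping ones. Pola1 was the single member of this complex called in Lef1 P2.

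Polymerases delta and epsilon extend the lagging and the leading strand, and their 4 members here differed little between the PB control and Lef1 P2. Outside the members, Pold4 was called higher in Lef1 P2 and is given below. Pold3, Pole3 and Pole4 were not called, though Pold3 and Pole4 were lower in Lef1 P2 with separate intervals. The catalytic subunit Pold1 was at 44.99, 49.1 and 44.6 FPKM, and the catalytic subunit Pole at 25.4, 22.2 and 22.95 FPKM. The level of Pole in Lef1 P2 was 1.15-fold below the PB control, with separate intervals. Pole2 was at 20.3, 20.2 and 19.5 FPKM. Pold2 was at 82.1 FPKM (77.5 to 86.8), 80.6 FPKM (76.1 to 85.4) and 59.9 FPKM (56.1 to 64.0), so here Lef1 P5 stood below both passage 2 libraries, by 1.37-fold against the PB control. It had the lowest ratio of all members in Lef1 P5, and it missed the 1.5-fold call.

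Pcna, the ring that tethers polymerases to DNA, had the highest level per length of the members in the PB control. It was at 290.1 FPKM (280.2 to 300.3) in the PB control, 173 FPKM (165 to 181) in Lef1 P2, then 343 FPKM (333 to 354) in Lef1 P5. The 3 intervals do not overlap. Lef1 P2 was 1.68-fold below the PB control (1.59 to 1.78), and Lef1 P5 was 1.99-fold above Lef1 P2. The 5 genes of the clamp loader, which opens the ring, were not called in any comparison as deposited. By comparison and direction, 4.31% to 20% of all genes tested were called at 1.5-fold. Rfc2 and Rfc5 were called higher in Lef1 P5 than in Lef1 P2 with median-of-ratios and TMM scaling. Rfc1 was at 48.8, 38.6 and 46.1 FPKM, Rfc2 at 57.5, 47.5 and 63.3 FPKM, Rfc4 at 46.0, 37.97 and 42.7 FPKM, and Rfc5 at 88.8, 69.8 and 96.1 FPKM. Each of these 4 was lowest in Lef1 P2. Rfc3 was at 26.3, 26.7 and 29.9 FPKM with overlapping intervals. The ratio of Pcna to Rfc3 levels was 11.02, 6.47 and 11.5.

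Lagging-strand pieces are trimmed by the flap nuclease Fen1 and joined by the ligase Lig1. Fen1 was at 40.9, 26.5 and 43.5 FPKM and was called lower in Lef1 P2, whereas Lig1, at 115, 91.9 and 111 FPKM, missed the call at -0.32 on the log2 scale. Single-stranded DNA at the fork is covered by the 3 subunits of replication protein A, and these also split. Rpa1 was at 85.3 FPKM (81.9 to 88.8), 51.4 FPKM (48.7 to 54.1) and 82.3 FPKM (79.0 to 85.7), and Rpa2 at 70.2, 45.9 and 70.8 FPKM. Both were called lower in Lef1 P2. The smallest subunit Rpa3 was at 52.7 FPKM (46.8 to 59.2), 53.5 FPKM (47.5 to 60.0) and 54.8 FPKM (48.8 to 61.2). The ratio of Rpa1 to Rpa3 was 1.62 in the PB control and 0.961 in Lef1 P2.

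Top2a, the topoisomerase that untangles replicated chromosomes and peaks in G2 and mitosis, went the other way. It was at 167 FPKM (164 to 171) in the PB control, 202 FPKM (198 to 207) in Lef1 P2, then 165 FPKM (161 to 169) in Lef1 P5. It was 1.21-fold higher in Lef1 P2, the highest ratio of the 47, though under the 1.5-fold call. In Lef1 P2 Top2a was the most abundant member per length, above Pcna.

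**Figure D4:**
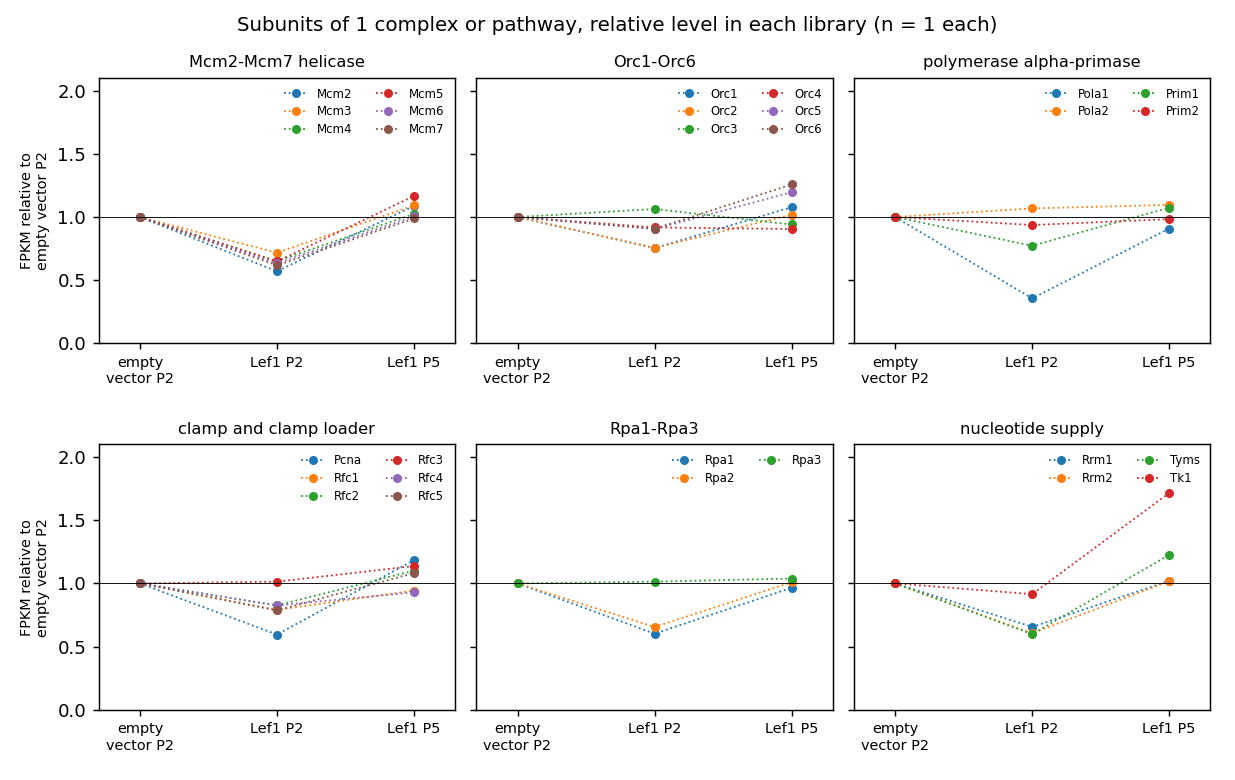
FPKM relative to the PB control (vertical axis, starting at 0) in each library (horizontal axis) for subunits of 1 complex or pathway per panel; each point is 1 gene in 1 library and dotted lines only connect points of a gene. The 6 Mcm genes lie together between 0.571 and 0.717 in Lef1 P2, whereas Pola1 (0.356) stands apart from Pola2 (1.07), and Rpa3 lies near 1, above Rpa1 (0.602).

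The nucleotide supply genes had the lowest median of the role groups in Lef1 P2, -0.66. Of the 4, 3 were called lower at 1.5-fold and 0 higher, beside 8.03% and 17.5% of all genes tested. Ribonucleotide reductase turns ribonucleotides into deoxyribonucleotides, and the members hold its large subunit Rrm1 and its small subunit Rrm2. A further small subunit outside the members, Rrm2b, was at 1.28, 2.78 and 1.21 FPKM in the PB control, Lef1 P2 and Lef1 P5. It was higher in Lef1 P2 with separate intervals, but under the 3 FPKM needed for a call. Rrm1 was at 69.3 FPKM (66.6 to 72.1) in the PB control, 45.5 FPKM (43.3 to 47.7) in Lef1 P2, then 70.7 FPKM (68.0 to 73.5) in Lef1 P5. Rrm2 was at 131, 79.1 and 133 FPKM, 1.65-fold lower in Lef1 P2. For both genes Lef1 P5 and the PB control overlap and Lef1 P2 lies apart. Their ratio, Rrm2 to Rrm1, was 1.88, 1.74 and 1.88.

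Tyms, the thymidylate synthase that makes dTMP from dUMP, was at 37.0 FPKM (35.0 to 39.1), 22.2 FPKM (20.6 to 23.8) and 45.4 FPKM (43.2 to 47.7). The 3 intervals do not overlap, and Lef1 P5 was 2.05-fold above Lef1 P2. The counts of Tyms were not whole, so they are estimates with more error than the intervals show. Tk1, the salvage kinase that makes dTMP from thymidine, was at 39.1 FPKM (35.7 to 42.8), 35.8 FPKM (32.5 to 39.3) and 67.1 FPKM (62.6 to 71.8). It was the exception in both respects, not called in Lef1 P2 and 1.72-fold higher in Lef1 P5 (1.53 to 1.92). All 4 supply genes were called higher at 1.5-fold in Lef1 P5 than in Lef1 P2, beside 7.98% of all genes tested. Exons of Tk1 overlap those of Afmid on the opposite strand, and the sources used here do not say whether counting used strand.

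Exons of 13 members overlap those of another listed gene, among them Mcm7 (Ap4m1 and Cops6), Fen1 (Tmem258) and Cdc45 (Ufd1). The same limit holds for these 13, except that Orc5 overlaps Gm15421 on its own strand, where use of strand would not separate them. Members with a higher level in Lef1 P5 tended to have a lower ratio of Lef1 P2 over the PB control, with Spearman's rho of -0.39 and Pearson's r of -0.33 across 47 genes. These points share libraries and are not replicates, and across all 10651 genes tested rho was -0.36. With genes at 10 FPKM or more, the median of all genes was 0.03 and the members' -0.34. Endoderm markers were 1871 FPKM in sum in Lef1 P2 against 180.0 FPKM, and their part in the lower replication genes was not tested. In bulk RNA, fewer cells with a transcript and less of it per cell cannot be told apart.

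In the PB control the order of levels per length ran from Pcna through Mcm7, Top2a and Mcm3 down to Gins3. In that order 10 of 46 neighbouring pairs had separate counting intervals, 4 of them the steps from Pcna to Mcm7, Top2a, Mcm3 and Mcm5. Most neighbours further down, such as Mcm5, Mcm2, Mcm6 and Rrm2, did not differ beyond counting error.

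Other genes of the pathway were read from lists that were not trimmed by their values but were chosen with earlier results of these data known. Of 30 further replication genes, 2 were called higher (6.67%) and 2 lower (6.67%) at 1.5-fold in Lef1 P2, beside 17.5% and 8.03% of all genes tested. Their median log2 ratio was -0.24, and 0 were called in Lef1 P5 against the PB control (4.31% of all genes higher and 5.95% lower). Rnaseh2a and Rnaseh2c, subunits of the nuclease that removes ribonucleotides from DNA, were lower in Lef1 P2 at 36.5 and 22.1 FPKM and at 39.5 and 24.7 FPKM, empty vector first. Pold4, the small subunit of polymerase delta, was higher, at 6.07 FPKM in the PB control, 19.9 FPKM in Lef1 P2 and 4.73 FPKM in Lef1 P5. Mcm8, a helicase related to the Mcm ring with a role in recombination, was at 6.92, 11.2 and 6.40 FPKM. Of the other accessory subunits of polymerase delta, Pold3 was at 25.7, 20.97 and 24.9 FPKM and was not called, and Pold2 is given above.

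Of 30 further nucleotide genes, 29 were tested, and Rrm2b was under the minimum level. Of the 29, 10 were called lower (34.5%) and 2 higher (6.90%) at 1.5-fold in Lef1 P2, beside 8.03% and 17.5% of all genes tested. The median log2 ratio of all 30 was -0.34. The lowest was Nme1, a nucleoside diphosphate kinase, at 135 FPKM in the PB control, 55.6 FPKM in Lef1 P2 and 144 FPKM in Lef1 P5. Next were Atic of purine synthesis (94.2, 49.3 and 105 FPKM) and Shmt1 of the folate cycle that feeds Tyms (73.4, 40.8 and 79.1 FPKM). Both genes called higher act in salvage inside mitochondria: the kinase Tk2 was at 4.15, 12.1 and 4.92 FPKM and the kinase Dguok at 6.59, 14.1 and 7.04 FPKM. So cytosolic Tk1 was not called in Lef1 P2 while the mitochondrial enzyme Tk2 was 2.91-fold higher. In Lef1 P5 against the PB control 1 of the 29 genes was called, lower (3.45%, beside 5.95% of all genes). This was Cad, the enzyme that starts pyrimidine synthesis, at 51.3 FPKM against 82.5 FPKM in the PB control and 50.3 FPKM in Lef1 P2.

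Of 21 genes of mitosis, 0 were called at 1.5-fold in Lef1 P2 (8.03% of all genes lower and 17.5% higher) or in Lef1 P5 (5.95% and 4.31%) against the PB control. The median log2 ratio in Lef1 P2 was 0.07, beside -0.34 for the 47 replication members and 0.11 for all genes. In Lef1 P2, 5 of the 21 were lower at any size, against 40 of 47 members and 42.4% of all genes. Between the Lef1 libraries 2 of 21 (9.52%) were called lower in Lef1 P5, beside 20% of all genes: Ccnb2, a mitotic cyclin, at 151 and 96.4 FPKM, and Bub1, a spindle checkpoint kinase, at 52.0 and 32.9 FPKM, Lef1 P2 first. With n = 1 the difference between the lists could not be tested.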

How the data were processed

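The deposited tables, 1 per library, list, per the file headers, genes by Entrez number with their transcripts, length, expected count and FPKM. Bowtie 0.12.2 and the mouse build mm8 are named per the submitters' processing notes. The counting program and its use of strand: not given in the sources used here. The deposited expected counts are estimates that need not be whole (8.49% to 8.61% of listed genes, and among the members Pola2, Tyms and Mcm10). The authors' FPKM values were used as deposited, and a missing row counted as 0. The deposited length is in bases and can differ between libraries. Symbols came from RefSeq (GRCm38.p6) for 17951 of 17997 numbers; that build served for names, promoters and overlapping exons.

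Ratios were log2((FPKM + 1)/(FPKM + 1)), which understates changes of low genes. Medians used genes at 1 FPKM or more in any library. Members and lists were chosen with earlier results of these data known. The text names all members and, of other lists, up to 3 highest and 3 lowest genes called at 1.5-fold. The call rule was tested on simulated counts. Alternatives were other pseudocounts, minimum levels, scalings (TMM by edgeR 4.0.16), CPM, thresholds and the mean. Analyses used Python 3.11.15 and scipy 1.17.1.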

Additional observations from a re-analysis of the deposited data

How the results depend on the processing

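No call of a member changed direction. Lower calls at 1.5-fold in Lef1 P2 against the PB control numbered 15, and 9 with a pseudocount of 5 FPKM and 8 with quantile scaling; Mcm2, Pola1, Rpa1, Rrm2 and Tyms were called with every pseudocount, minimum and scaling tried and with CPM. The members' median of -0.34 in that comparison was -0.50 with median-of-ratios and with TMM scaling (-0.47 relative to all genes in both). At 2-fold, changing the threshold to 1.5-fold gave 15 lower calls in place of 1 in Lef1 P2, 1 higher call in place of 0 in Lef1 P5 against the PB control, and 17 in place of 2 in Lef1 P5 against Lef1 P2, the same numbers when intervals also had to be separate. For Lef1 P5 against Lef1 P2, higher calls at 2-fold were 0 with a pseudocount of 5 FPKM and 7 with median-of-ratios or TMM scaling. Higher calls at 1.5-fold were 27 with median-of-ratios and 10 with quantile scaling, and the median was 0.62 and 0.60 with median-of-ratios and TMM. The cause was not tested. Relative to all genes, the members' median ran from -0.50 to -0.26 in Lef1 P2 and from 0.03 to 0.07 in Lef1 P5 over all settings. Ratios of members not called in a comparison did change sign between settings. In Lef1 P2 these were Orc3, Dbf4, Pola2, Pold1, Pold2, Rfc3 and Rpa3, while 40 members kept their sign. Of the members followed in the other comparisons, Rrm2 did in Lef1 P5 against the PB control (9 kept theirs) and Orc3 and Cdc7 in Lef1 P5 against Lef1 P2 (20 kept theirs). The split of calls over all genes also turned with median-of-ratios scaling, from 1864 higher and 855 lower to 1252 and 1440 in Lef1 P2, and from 845 and 2116 to 1602 and 1279 in Lef1 P5 against Lef1 P2. Every statement about Lef1 P2 rests on 1 library. No paired analysis was possible because each group has 1 library. At this depth the least covered member, Gins3, had 158 expected reads in Lef1 P2.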

Other observations

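Of 22 genes that control entry into S phase, 2 were called lower (9.09%) and 2 higher (9.09%) at 1.5-fold in Lef1 P2, beside 8.03% and 17.5% of all genes tested, so the lower share is near that of all genes. The list had a median log2 ratio -0.12 relative to that of all genes. Ccne1, the cyclin that drives the G1 to S step, was at 122 FPKM in the PB control, 43.8 FPKM in Lef1 P2 and 119 FPKM in Lef1 P5. E2f2, an activating E2F factor, was at 9.62, 5.05 and 4.73 FPKM, low in both Lef1 libraries. The inhibitors of S phase entry Cdkn1b (15.9, 29.4 and 16.5 FPKM) and Rbl1 (5.73, 9.87 and 6.03 FPKM) were called higher in Lef1 P2. In Lef1 P5 6 of the 22 were called lower and 0 higher, beside 5.95% and 4.31% of all genes. The lowest 3 were E2f2, the cell cycle inhibitor Cdkn1a (55.3 FPKM in the control and 33.5 FPKM in Lef1 P5) and the retinoblastoma gene Rb1 (7.79 and 4.57 FPKM). The other 3 were Rbl2, E2f1 and Tfdp2, and the counts of E2f1 were not whole.

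Of 16 genes of the replication checkpoint and fork repair, 0 were called at 1.5-fold in any of the 3 comparisons. By comparison and direction, 4.31% to 20% of all genes tested were called. The median log2 ratio of the 16 genes was -0.06 in Lef1 P2 and 0.04 in Lef1 P5 against the PB control.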
